A study of Mus musculus and Homo sapiens with 12 samples.

Results

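The T-box factors Tbx1, Tbx2, Tbx4, Tbx5, Tbx6, Tbx15, Tbx18, Tbx20 and Tbx21, 9 of the 54446 mouse genes counted, were followed in chromatin-associated RNA (caRNA) of mouse embryonic stem cells (mESC), beside the human genes of the same symbols, 9 of 58721, in K562 cells. The members were chosen by their measured counts in mESC: Tbx2 and Tbx4 held 8 to 36 counts in an m5C-IP library on 6 to 14 counts in an Input library many times as deep. The mESC comparison of m5C-IP with Input is therefore given for the mouse members as a description, with no test, whereas the K562 libraries took no part in the choice. RNA was fragmented, and fragments bound by an antibody against 5-methylcytosine (m5C-IP) were sequenced beside fragments taken without pull-down (Input). Each line was wild type and gave 3 Input and 3 m5C-IP libraries, 12 in all. The mESC came from mouse embryos, were grown with LIF and the inhibitors CHIR99021 and PD0325901, and were passaged on gelatin to remove feeder cells. K562, an established human leukaemia line with erythroid features, was kept in medium for which the labels name puromycin. Groups followed the library titles, since the antibody label goes against them: it gives none for m5C-IP of mESC, and the m5C antibody for Input of K562.

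T-box proteins are transcription factors that share a DNA-binding domain first known from Brachyury, and most of them act at set times and places in the embryo. Tbx1 patterns the pharyngeal arches and the cardiac outflow tract, Tbx2 is a repressor in the heart and limb, Tbx4 drives hindlimb and lung growth, and Tbx5 drives forelimb and heart growth. Tbx6 specifies paraxial mesoderm, Tbx15 acts in skeleton, muscle and skin, Tbx18 marks the epicardium and the sinus node, Tbx20 acts in cardiac muscle, and Tbx21 (T-bet) directs type 1 T helper cells. m5C is a methylated cytosine that NSUN-family enzymes and DNMT2 place in RNA, and pull-down with its antibody counts fragments, not single bases.

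The depth of the libraries sets how well such genes were measured. An mESC Input library held 29007088 to 34752646 gene counts, whereas an mESC m5C-IP library held 473398 to 592324. Scaled to 1000000 gene counts per library (CPM), 3 counts stood for 0.0863 to 0.103 CPM in Input and for 5.06 to 6.34 CPM in m5C-IP. K562 Input held 10477119 to 11865285 gene counts and K562 m5C-IP 93110 to 111286, where 3 counts stood for 27.0 to 32.2 CPM. Of the 6 stem cell markers, 5 were detected in mESC, and Sox2 was listed at 0 in all 6 libraries. Of the 7 K562 markers, HBE1 and HBG2 were listed at 0. The annotated spans of HBE1 and HBG2 overlap each other on the same strand, and the part of this overlap in their 0 counts was not tested. The labels do not say whether replicates were separate cultures, so p-values measure the spread between these libraries, which may be technical. The study's figure legends describe its genome-wide data as drawn from biological replicates.

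Most of the mouse members were low in mESC Input, but not all of them were silent. Per kilobase of exon, Tbx15 was the highest of the 9 at 1.17 RPKM in Input (range of 3 libraries 1.07 to 1.23), above the median of 0.893 RPKM over 21918 protein-coding genes. Tbx20 followed at 0.643 RPKM (0.624 to 0.653) and Tbx6 at 0.401 RPKM (0.367 to 0.453), each separated from the next member by ranges that did not overlap. Tbx21 at 0.179 RPKM and Tbx18 at 0.174 RPKM overlapped each other. Tbx2 at 0.104 RPKM, Tbx4 at 0.0792 RPKM and Tbx5 at 0.0593 RPKM formed a run in which each overlapped its neighbour. Tbx1 stood apart at the bottom with 0.0117 RPKM (0.00818 to 0.0172). The members thus lay between the 21.5th and the 52.0th percentile of protein-coding genes in Input, where 15.4% of protein-coding genes had no Input count at all.

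**Figure D1:**
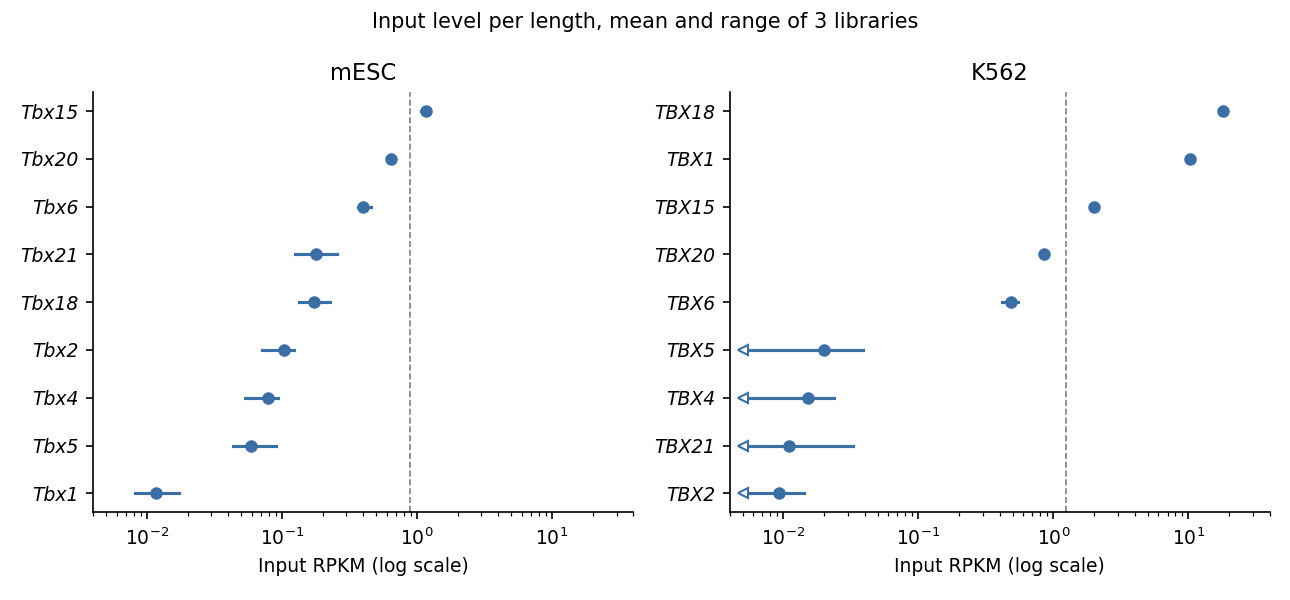
Input level of each member per kilobase of exon (RPKM, log axis) in mESC (left) and K562 (right); points are means and lines the range of 3 libraries, with an open arrowhead where a library had 0 counts, and the dashed line is the median of protein-coding genes. Tbx15 alone passes that median in mESC, whereas TBX18, TBX1 and TBX15 pass it in K562.

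Tbx2 and Tbx4 lie next to each other on mouse chromosome 11, at chr11:85832551-85841948 and chr11:85886422-85916097 (mm10), both on the plus strand. Tbx2 had 13, 14 and 9 counts in the 3 Input libraries and 8, 23 and 23 in the 3 m5C-IP libraries. In CPM these were 0.448, 0.424 and 0.259 for Input and 16.9, 39.1 and 38.8 for m5C-IP, so the groups did not overlap and m5C-IP replicate 1 was the lowest of its group. The fitted log2 IP/Input of Tbx2, scaled by TMM (trimmed mean of M values), was 5.42 (SE 0.506, n = 3 and 3).

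Tbx4 was spread evenly over its m5C-IP libraries. It had 9, 6 and 11 Input counts and 31, 33 and 36 m5C-IP counts, or 0.310, 0.182 and 0.317 CPM against 65.5, 56.1 and 60.8 CPM. No m5C-IP library held more than 36.0% of its m5C-IP counts, and its log2 IP/Input was 6.81 (SE 0.433).

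The sequences under the peaks next to and inside both genes are shown. They are the places where the authors' peak caller put the m5C-IP signal of single libraries. The study's methods asked that a significant peak be present in every biological sample. No peak position at or near a member was found in all 3 libraries, so none met that rule. Immediately before the start of Tbx2, m5C-IP replicates 1 and 2 each held a peak, shifted by 1 base against each other, and this was the only peak position near a member that 2 libraries shared to within 1 base. It ended 63 to 64 bases before the annotated start, outside the gene body, and was looked for after the values had been seen. A second pair of wider peaks lay further upstream, at chr11:85831384-85831610 in replicate 2 and chr11:85831434-85831801 in replicate 1. Tbx4 held 1 peak in each of the 3 libraries, at 3 different places: in the coding part of exon 8 of 8 in replicate 1, and in introns at chr11:85888244-85888393 in replicate 2 and chr11:85895088-85895237 in replicate 3, the last on the minus strand. Sequences are from the reference genome (GRCm38, plus strand, 5′ to 3′), with capitals for CNGGG, the motif linked to the methyltransferase NSUN2, on either strand (read as CCCNG where it lies on the other strand). Neighbouring matches can overlap and then form 1 run of capitals.
Tbx2 upstream peak, chr11:85832339-85832487, shared by replicates 1 and 2: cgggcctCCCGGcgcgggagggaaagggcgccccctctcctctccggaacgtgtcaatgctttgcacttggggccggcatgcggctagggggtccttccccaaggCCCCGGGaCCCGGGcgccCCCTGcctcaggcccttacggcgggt
Tbx4 exon 8 peak, chr11:85914156-85914305, replicate 1: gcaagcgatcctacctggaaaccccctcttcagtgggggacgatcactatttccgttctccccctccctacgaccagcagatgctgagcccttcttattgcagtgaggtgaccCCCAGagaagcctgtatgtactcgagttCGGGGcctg

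The stretch before Tbx2 was rich in G and C, at 73.8% of its 149 bases, and it held 14 CG dinucleotides and 7 matches to CNGGG over both strands. The Tbx4 exon stretch was 57.3% G and C and held 49 cytosines, 6 CG dinucleotides and 2 matches. The median over the 36353 peaks of 140 to 160 bases in the 3 lists was 50.7% G and C, and 70.5% of them held CNGGG on either strand. A match therefore describes the letters under a peak and marks neither a methylated base nor an enzyme.

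Among the other members, Tbx1 and Tbx5 had the largest differences, and they differed in how evenly the libraries shared it. Tbx1, at chr16:18580979-18590671, had 1, 2 and 1 Input counts and 13, 14 and 11 m5C-IP counts. Its log2 IP/Input of 7.92 (SE 0.673) rested on 4 Input counts in all, each library being under 3 counts. Tbx5, at chr5:119832668-119885219, had 6, 14 and 7 Input counts and 12, 189 and 15 m5C-IP counts. Replicate 2 alone held 87.5% of the m5C-IP counts of Tbx5, at 321 CPM against 25.3 and 25.4 CPM in the other two. The log2 IP/Input of Tbx5 was 7.81 (SE 0.851) with all libraries and 5.53 without m5C-IP replicate 2.

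Tbx6 and Tbx21 also depended on 1 library. Tbx6, at chr7:126781483-126785560, had 20, 27 and 23 Input counts and 1, 1 and 18 m5C-IP counts, so that 90.0% of its m5C-IP counts came from replicate 3. Its log2 IP/Input was 3.04 (SE 0.745) and 0.44 without that library. Tbx21, at chr11:97098071-97115331, had 9, 13 and 22 Input counts and 6, 19 and 1 m5C-IP counts, with 73.1% of the latter in replicate 2. Its log2 IP/Input was 4.13 (SE 0.712) and 2.94 without m5C-IP replicate 2. In the libraries where Tbx6 and Tbx21 had 1 count, their level was under the 3-count floor and can hardly be told from 0.

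Tbx15, Tbx18 and Tbx20 had the most Input counts per gene or the smallest differences. Tbx15, at chr3:99240381-99354259, had 116, 152 and 159 Input counts and 9, 40 and 58 m5C-IP counts, the m5C-IP levels running from 19.01 CPM in replicate 1 to 97.9 CPM in replicate 3. Its log2 IP/Input was 2.88 (SE 0.353). Tbx18, at chr9:87702800-87731260, had 22, 21 and 37 Input counts and 16, 7 and 8 m5C-IP counts, replicate 1 being the highest at 33.8 CPM, and a log2 IP/Input of 3.56 (SE 0.517). Tbx20, at chr9:24718138-24774303, had 217, 259 and 272 Input counts and 18, 9 and 16 m5C-IP counts. The log2 IP/Input of Tbx20, 0.78 (SE 0.309), was the smallest of the 9, and ran from 0.34 with no filter on low counts to 1.79 with scaling by library size alone. Genes on the other strand are annotated over 6588 bases of the Tbx15 span (Gm43120) and 1976 bases of the Tbx18 span (D030062O11Rik). Since the strand setting of the counting was not stated, counts of Tbx15 and Tbx18 are uncertain.

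**Figure D2:**
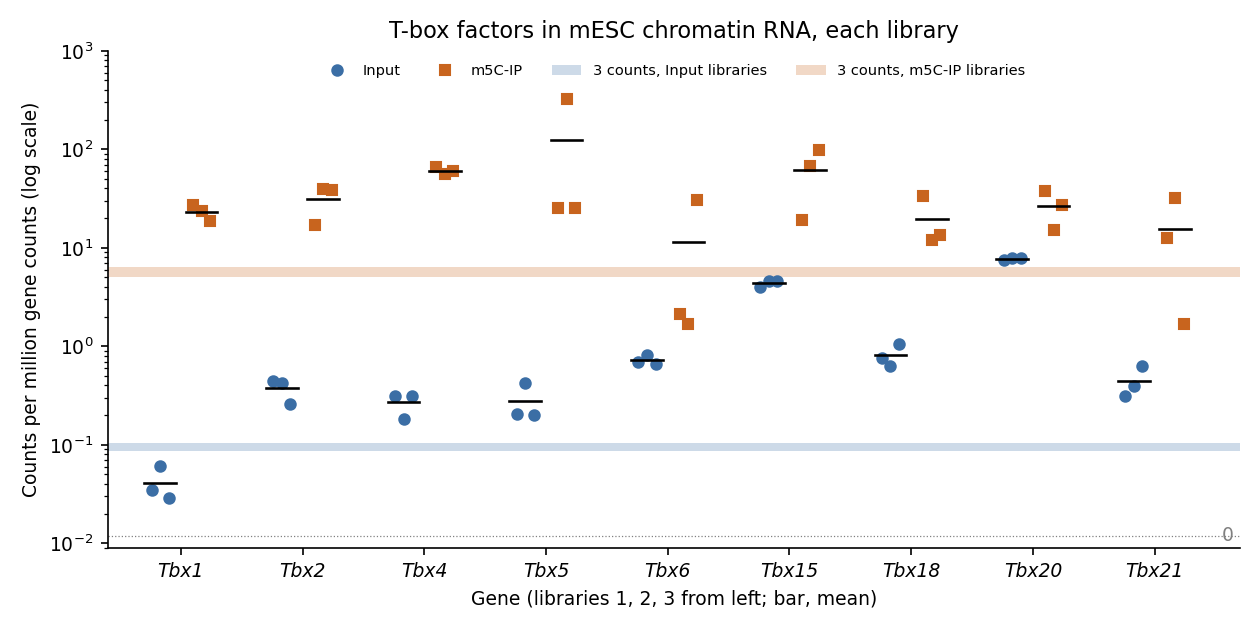
Level of each mouse member in each mESC library (CPM, log axis), with Input as circles and m5C-IP as squares, libraries 1 to 3 from left, black bars for means and shaded bands for the level of 3 counts. Every m5C-IP square lies above every Input circle of its gene, with single high libraries for Tbx5 and Tbx6.

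All 9 members had every m5C-IP library above every Input library in CPM, as had 47.7% of the 20244 genes tested in mESC, whereas 27.6% had every m5C-IP library below. The median log2 IP/Input of the 9 was 4.13 beside -0.17 over all tested genes. Nothing is read from these counts, because this contrast chose the members, and because 7 of the 9 met the filter on low counts in m5C-IP while at least 1 Input library was below it. That filter asked for 0.676 CPM in 3 libraries, whereas 1 count in an m5C-IP library stood for 1.69 to 2.11 CPM. A gene below 1.69 CPM in every Input library thus needed only 1 count per m5C-IP library to reach that level and to lie above Input. Tbx15 and Tbx20 met the filter in all 6 libraries. Mean m5C-IP levels ran from 2.23 RPKM for Tbx20 to 26.5 RPKM for Tbx5, and each member overlapped its neighbour in that order. Their narrower spread than in Input is not read as a result, since the members were chosen on these counts. The order by log2 IP/Input, from Tbx1, Tbx5, Tbx4 and Tbx2 down to Tbx15 and Tbx20, ran close to the reverse of the Input order, with which it shares the Input counts.

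**Figure D3:**
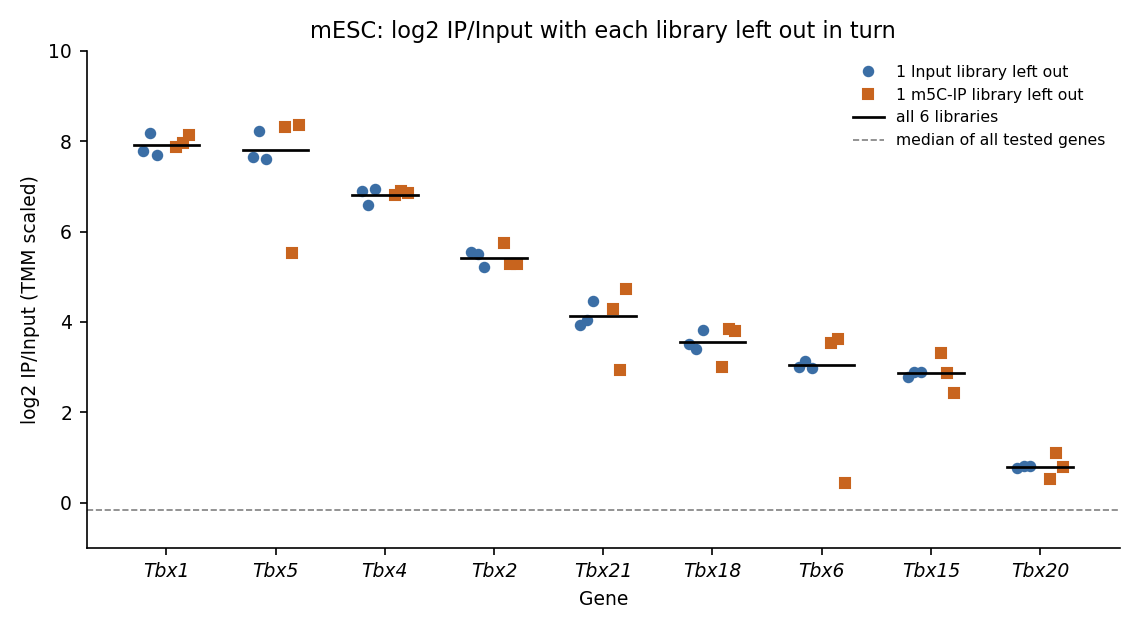
Fitted log2 IP/Input of each mouse member in mESC with all 6 libraries (black bar) and with each Input library (circles) or m5C-IP library (squares) left out, on the same tested genes; the dashed line is the median of all tested genes. Tbx4 moves from 6.58 to 6.95, whereas Tbx5 drops to 5.53 and Tbx6 to 0.44 when 1 m5C-IP library is left out.

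Base composition differed widely among the members. The transcripts of Tbx2 and Tbx1 had 63.2% and 62.8% G and C, at the 98.9th and 98.7th percentile of protein-coding genes, and Tbx21 and Tbx6 were above the 93rd percentile with 59.3% and 59.1%. Tbx4 had 54.0% and Tbx5 51.3%. Tbx15, Tbx18 and Tbx20 were below the median of 48.7%, at 48.2%, 46.8% and 42.3%. A correction for GC content moved none of the 9 values of log2 IP/Input by more than its standard error.

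Peaks had been called by the authors for each mESC m5C-IP library and strand, with no usable score. They are counted here by single library, a looser rule than the study's own, which asked for presence in every biological sample. No peak of a member lay at the same place in all libraries. Of the 9 members, 5 held a peak in the gene body (Tbx4, Tbx5, Tbx6, Tbx15 and Tbx18), and none was found in the bodies of Tbx1, Tbx2, Tbx20 and Tbx21. A peak lay in the body of 41.2% of the tested genes and of 18.4% of all annotated genes, so that 5 of 9 does not set the members apart. Of these 5, Tbx4 alone had peaks in more than 1 library. The recorded strand was that of the gene for 40.5% of the 19819 peaks wholly inside genes of 1 strand, and it was therefore not taken as the strand of the RNA.

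For Tbx5, Tbx6 and Tbx15, the peaks came from the library that held most of the counts. The Tbx5 peak was found in replicate 2, at chr5:119883411-119883566, across the end of the coding sequence in exon 9 of 9, with 74 coding bases and 82 bases of 3′ UTR. The Tbx6 peak was found in replicate 3, at chr7:126783278-126783427, over 74 coding bases of exon 4 of 8 and 76 bases of the next intron. Both peaks of Tbx15 came from replicate 3, 1 at the gene start (chr3:99240390-99240539) and 1 in an intron (chr3:99279442-99279591), and replicate 3 also had the highest Tbx15 count. Peaks and counts come from the same libraries and are not independent of each other. Tbx18 departed from this: both of its peaks, at chr9:87729625-87729774 partly in exon 2 of 8 and at chr9:87731238-87731387 over the gene start, came from replicate 3, whereas its m5C-IP level was highest in replicate 1. Both Tbx18 peaks were recorded on the strand opposite to the gene.

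The coding part of the Tbx5 peak, the Tbx6 peak and the part of the Tbx18 peak before the gene start are shown, the last 2 as the places where 1 library put signal into an exon border and a promoter.
Tbx5 coding part of the peak, chr5:119883411-119883484: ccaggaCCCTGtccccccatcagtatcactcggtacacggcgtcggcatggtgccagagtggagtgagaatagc
Tbx6 exon 4 and intron peak, chr7:126783278-126783427: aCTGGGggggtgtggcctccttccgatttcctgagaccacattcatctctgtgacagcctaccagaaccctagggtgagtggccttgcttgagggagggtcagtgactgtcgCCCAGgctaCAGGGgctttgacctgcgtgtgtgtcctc
Tbx18 part of the peak before the start, chr9:87731261-87731387: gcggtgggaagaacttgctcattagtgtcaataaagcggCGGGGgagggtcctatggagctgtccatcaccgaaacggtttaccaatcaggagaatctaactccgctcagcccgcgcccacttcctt

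With capitals for CNGGG as above, the Tbx5 stretch held 1 match in 74 bases, the Tbx6 stretch 3 matches in 150 bases and the Tbx18 stretch 1 match in 127 bases. None of these stretches was repeat-masked in the genome build except for part of the Tbx5 peak, 38.5% of whose 156 bases were masked, and 47.1% of the peaks of 140 to 160 bases were masked over more than 50% of their length.

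**Figure D4:**
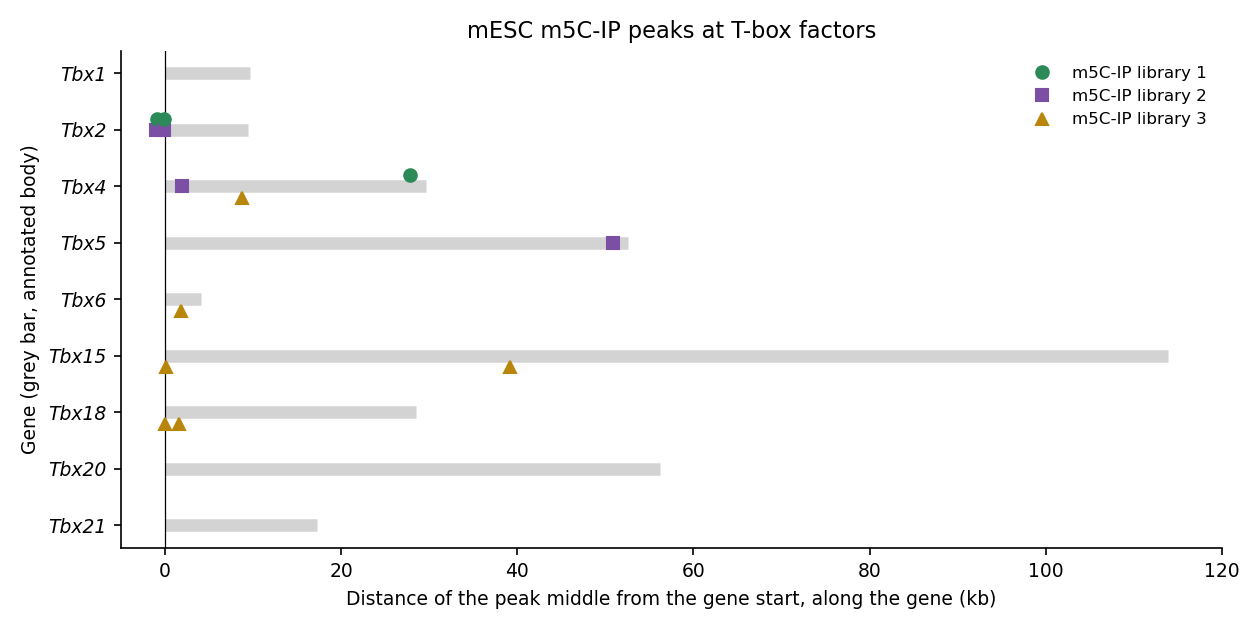
Position of every m5C-IP peak at the 9 mouse members, as the distance of its middle from the annotated gene start along the gene (kb), with the gene body in grey and 1 symbol for each library. Tbx4 carries 1 peak of each library at 3 places, and the peaks next to Tbx2 lie before its start.

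The mouse genes whose 6 mESC values were closest to those of Tbx2 and Tbx4, by the root mean square difference of log2(CPM + 1), were as rare in Input as both members. For Tbx2 the nearest was Il12rb2, a subunit of the interleukin-12 receptor, with a difference of 0.117, Input counts of 16, 8 and 9 and m5C-IP counts of 7, 23 and 23. Nlrp3 (0.163) and Dgkk (0.190) followed. Among those nearest to Tbx4 were Gm5580 (0.118) and Catsper4 (0.164), with m5C-IP counts between 27 and 39. In a measure that rests on so few Input counts, the likeness says mainly that these genes were as low in Input and as high in m5C-IP.

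In K562 the 9 human genes had another order of levels. TBX18 was highest at 17.9 RPKM in Input (17.8 to 18.1), at the 88.5th percentile of protein-coding genes, followed by TBX1 at 10.3 RPKM and TBX15 at 2.002 RPKM. TBX20 at 0.856 RPKM and TBX6 at 0.485 RPKM came next, and the ranges of these 5 did not overlap. TBX5, TBX4, TBX21 and TBX2 were at or under 0.0202 RPKM with at most 2 counts in any Input library and with ranges that overlapped. By these counts, the T-box factors that dominate in K562 Input are others than TBX2 and TBX4, and TBX1, the rarest of the 9 in mESC Input, had 408 to 498 counts in each K562 Input library. On the other strand, TBX2-AS1 overlaps 9624 bases of the TBX2 span and a noncoding transcript 3161 bases of the TBX4 span. Since the strand setting of the counting was not stated, counts of TBX2 and TBX4 are uncertain.

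Of the 9 human genes, TBX1, TBX15 and TBX18 met the filter on low counts and were tested, and each met it in all 6 libraries. TBX1 and TBX15 were higher in m5C-IP and TBX18 was lower, beside 15.1% of the 14522 tested K562 genes called higher and 16.4% called lower. With 3 tested genes, these counts say nothing about the human members as a group. The median log2 IP/Input of the 3 was 1.45 beside -0.16 over all tested genes.

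TBX15, at chr1:118883046-118989556 (hg38), had 98, 100 and 96 Input counts and 6 counts in each m5C-IP library. Its level was 8.70 ± 0.452 CPM in Input and 58.0 ± 5.66 CPM in m5C-IP (SD, n = 3 each), with no overlap. The log2 IP/Input of TBX15 was 2.52 (SE 0.474, edgeR quasi-likelihood test, Benjamini-Hochberg adjusted p = 3.4e-06).

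TBX1, at chr22:19756703-19783593, had 469, 498 and 408 Input counts and 19, 10 and 11 m5C-IP counts. It rose from 40.6 ± 2.29 CPM in Input to 128 ± 43.9 CPM in m5C-IP, with replicate 1 the highest of its group. The log2 IP/Input of TBX1 was 1.45 (SE 0.272, edgeR, adjusted p = 3.12e-06) and 1.13 without m5C-IP replicate 1 (adjusted p = 0.00944). TBX1 transcripts had 70.2% G and C, at the 99.6th percentile, and with the GC correction the value was 1.201 (adjusted p = 0.000107). The GNB1L gene overlaps 371 bases of the TBX1 span on the other strand.

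TBX18, at chr6:84687351-84764598, had 1834, 1802 and 1609 Input counts and 11, 8 and 9 m5C-IP counts. It fell from 155 ± 1.34 CPM in Input to 90.2 ± 16.0 CPM in m5C-IP, with every m5C-IP library below every Input library. The log2 IP/Input of TBX18 was -0.995 (SE 0.242, edgeR, adjusted p = 0.000395), but it was -0.29 (adjusted p = 0.643) when Input counts were thinned at random to the depth of m5C-IP. With the GC correction the value was -0.712 (edgeR, adjusted p = 0.0196), a move larger than its standard error. TBX18-AS1, an antisense transcript, overlaps 21867 bases of the TBX18 span, so counts of TBX18 are uncertain as well. In K562, 22.4% of the tested genes had every m5C-IP library above and 24.4% every m5C-IP library below Input.

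The other 6 human genes did not meet the filter on low counts. TBX6 had 20, 15 and 16 Input counts and 3, 0 and 1 m5C-IP counts, a ratio of pooled CPM of 8.51 with an exact (Clopper-Pearson) 95% interval of 2.23 to 23.2 for counting error only. TBX20 had 18, 19 and 16 Input counts and 0 m5C-IP counts, but its 1.56 CPM in Input was far under the 9.61 CPM for which 3 counts over the K562 m5C-IP group stood, so that a fall was not detectable. TBX2 had 1 m5C-IP count in all, and TBX4, TBX5 and TBX21 had none.

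**Figure D5:**
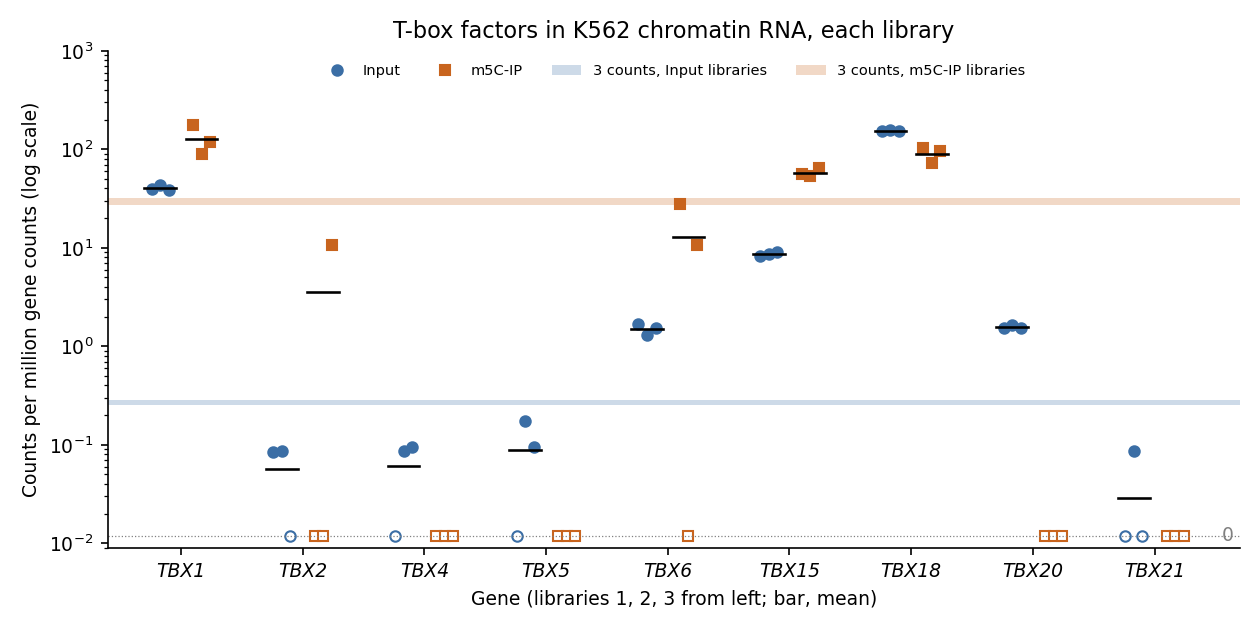
Level of each human gene in each K562 library (CPM, log axis), drawn as for mESC, with open symbols on the dotted line for libraries with 0 counts. TBX1 and TBX15 lie higher in m5C-IP, TBX18 lies lower, and the other 6 genes have m5C-IP values at or under the band of 3 counts.

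Of the other 8 T-box genes, those abundant in mESC Input were lower in m5C-IP. Tbx3, a repressor that mESC use in self-renewal, had 5355, 6207 and 6331 Input counts and 28, 56 and 45 m5C-IP counts, and fell by 2.22 on the log2 scale (SE 0.134, edgeR, adjusted p = 3.37e-10). Mga, which joins a T-box to a partner domain for MAX, had 15863, 17884 and 18544 Input counts and 86, 126 and 106 m5C-IP counts, and fell by 2.46 (SE 0.0825, adjusted p = 4.83e-13). Eomes, a factor of the early mesoderm and endoderm, did not pass the test with a log2 IP/Input of 0.12 (adjusted p = 0.738), nor did the neuronal factor Tbr1 at 0.82 (adjusted p = 0.174) or Brachyury itself (T) at -0.47 (adjusted p = 0.658). Of the 7 tested, 2 rose, 2 fell and 3 did not pass, beside 39.9% of all tested genes called higher and 42.0% called lower. The 2 that rose, Tbx10 and Tbx19, are named after their values were seen: they had 5 and 7 Input counts in all 3 libraries together, 13 and 15 m5C-IP counts, and passed the filter through m5C-IP. The count of 2 that rose became 4 with scaling by library size, 0 with Input thinned, 0 without each Input library in turn and 1 without m5C-IP replicate 3. With Input thinned 10315 genes were tested, and 12280 to 12292 without an Input library. On the 20244 genes of the full comparison, an alternative chosen after seeing the data, the count stayed at 2 without each Input library. Tbx22 had no Input count and was not tested. No test compared the other T-box genes with the members, whose values chose them.

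In K562, MGA and TBX19 were the other T-box genes that could be tested. MGA fell by 0.53 on the log2 scale (SE 0.207, edgeR, adjusted p = 0.0354), a call that held in 5 of 19 alternatives. TBX19, which drives pituitary corticotrope identity, did not pass at 0.67 (adjusted p = 0.416).

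Of 30 partners and targets of T-box factors, such as cardiac and limb regulators, 21 were tested in mESC, of which 18 rose in m5C-IP, 2 fell and 1, Cdkn2a, did not pass. Over all tested genes 39.9% were called higher and 42.0% lower. The 18 that rose became 8 with Input thinned and 13 without each Input library in turn, in fits that tested fewer genes. Without each Input library on the genes of the full comparison, an alternative chosen after seeing the data, they were 17 or 18. The list's median log2 IP/Input was 3.84 beside -0.17 over all tested genes, and 12 of the 21 met the filter with at least 1 Input library below it, as most members had. Hlx, a homeobox gene active with Tbx21 in T helper cells, had 0, 1 and 1 Input counts and 11, 21 and 20 m5C-IP counts. Mesp1, an early cardiac mesoderm factor, had 0, 2 and 0 Input counts and 10, 18 and 24 m5C-IP counts. Pitx1, which acts upstream of Tbx4 in the hindlimb, had 3, 2 and 0 Input counts and 11, 14 and 4 m5C-IP counts. These genes had the highest log2 IP/Input that the naming rule picked from the list, and each met the filter in m5C-IP alone, so their values are given with no test. Fgf10, the limb and lung growth factor downstream of Tbx4 and Tbx5, had 3361, 3990 and 4195 Input counts and fell by 1.94 (SE 0.153, adjusted p = 8.97e-09), and Gja1, a connexin gene that Tbx2 represses, fell by 2.05 (SE 0.296, adjusted p = 8.56e-06). The 2 that fell had the highest Input levels of the list, 119 and 28.1 CPM.

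In K562, 8 of the 30 were tested, of which 1 was called higher and 3 lower, beside 15.1% and 16.4% of all tested genes. The count of 3 lower became 2 under RLE scaling, library size scaling, DESeq2 and the replicate block, 1 without each Input library in turn and 0 with Input thinned, and the count of 1 higher ran from 0 to 4 over the alternatives. Fits with Input thinned tested 3210 genes, and those without an Input library 3721 to 3726, fewer than the full comparison. The gene called higher, RUNX3, a regulator of T cell fate, had 18, 9 and 15 Input counts and 2, 4 and 2 m5C-IP counts. It met the filter through m5C-IP alone, so its values are given with no test. MEF2C fell by 1.15 (SE 0.187, edgeR, adjusted p = 6.75e-08) and WT1 by 0.94 (SE 0.255, adjusted p = 0.00172). HAND2, the other gene called lower, met the filter through Input alone: it had 114, 122 and 94 Input counts and was at 0 in m5C-IP, and with 9.72 CPM in Input beside a 3-count level of 9.61 CPM over the m5C-IP group no fold is given.

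Markers of other cells were measured beside these values in mESC. The summed level of 8 feeder fibroblast markers was 54.0 to 56.0 CPM in Input and 57.03 to 81.6 CPM in m5C-IP, with Lum at 0 in all libraries. The 5 mesoderm markers, among them T and Eomes, summed to 9.50 to 11.4 CPM in Input and 59.5 to 69.7 CPM in m5C-IP, and the 4 extra-embryonic markers to 5.30 to 6.59 CPM and 120 to 159 CPM. In K562, 8 fibroblast markers summed to 1.81 to 2.43 CPM in Input and 0 to 46.3 CPM in m5C-IP, and 5 lymphoid markers to 1.15 to 2.25 CPM and 9.27 to 35.9 CPM. These m5C-IP sums rest on few counts, since 3 counts stood for 27.0 to 32.2 CPM in a K562 m5C-IP library. The highest fibroblast sum was 2 counts of COL1A1 and 3 of TWIST2 in replicate 1, so no rise is read from them. In mESC, all 4 extra-embryonic markers were called higher in m5C-IP, as were 2 of the 4 mesoderm markers tested, while T and Eomes did not pass. Other lists went otherwise: all 5 stem cell markers tested were lower, and of 6 feeder markers tested 2 were higher and 3 lower. Over all tested mESC genes 39.9% were called higher and 42.0% lower. Most of the extra-embryonic and mesoderm markers called had met the filter with at least 1 Input library below it. The part of any of these markers in the members' values was not tested. Fewer cells with a transcript and less of it per cell cannot be told apart in such bulk libraries.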

How the data were processed

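The files deposited by the authors are raw gene counts of 12 libraries and peak lists of the 3 mESC m5C-IP libraries. Per the labels and the study's methods, reads were processed with Trimmomatic 0.39, HISAT2 2.1.0, SAMtools 1.16.1 and MACS2 against mm10 or hg38, with spike-ins that were not used here. The deposited counts end in HTSeq summary lines, which held 19.0% to 19.3% of records in mESC Input, 71.4% to 71.7% in mESC m5C-IP, 26.0% to 26.2% in K562 Input and 60.7% to 61.4% in K562 m5C-IP, and stayed out of library sizes and tests. Per the study's methods, duplicates were marked with Picard before peaks were called on each strand. Whether the counted reads were deduplicated or counted by strand is not given in the sources used here. Values are relative within a library.

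GENCODE M21 (GRCm38) and 44 (GRCh38) supplied symbols, exon lengths and GC content. They are other releases than the study's, and 99.9% and 99.1% of identifiers matched. Each line was tested with edgeR 4.0.16 in R 4.3.3 (filterByExpr with a minimum count of 10, TMM, glmQLFit and glmQLFTest, Benjamini-Hochberg adjustment at 0.05 over all tested genes). That minimum count was scaled to the median library, giving 0.676 CPM in mESC and 1.89 CPM in K562. In an m5C-IP library of either line, 1 count was above that level. The standard error was the log2 value divided by the square root of its F statistic. For mESC the common biological coefficient of variation was 0.0583. For K562 it was 0.00988, little above what counting alone gives. For pairs of Input libraries of K562, the chi-square divided by its degrees of freedom was 0.912 to 1.03 over genes but 18.3 to 80.4 over 20 bins of GC content, and they were kept as 3 libraries. Alternatives used DESeq2 1.42.0, other scalings and filters, thinning, GC offsets, a replicate block and left-out libraries. On simulated data with 200 genes changed by 2 on the log2 scale, 200 were recovered in mESC over 20108 genes and 200 in K562 over 14202 genes, with 8 and 5 false calls. The changed genes were drawn from those with at least 20 expected counts in an m5C-IP library, and all genes shared a common dispersion. The recovery therefore does not cover genes as low in m5C-IP as the 3 tested human T-box genes.

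The members and lists were chosen with earlier results of these data known. All members were named, up to 5 other T-box genes per line by Input level, and up to 3 partners per direction by the size of their change with a mean of at least 1 CPM. A peak counted for a gene from 1 shared base on. Intervals and floors of 3 counts cover counting error only, since no molecular identifiers tell reads from molecules. One gene that the likeness measure named is not reported here.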

Additional observations from a re-analysis of the deposited data

Results flagged for a closer look

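Tbx18 in mESC and TBX18 in K562 lay on opposite sides: every m5C-IP library was above every Input library in mESC and below in K562. The log2 IP/Input in K562 minus that in mESC was -4.56. This difference was not tested, the mESC value belongs to the contrast that chose the members, and Input counts were 22, 21 and 37 in mESC against 1834, 1802 and 1609 in K562.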

How the results depend on the processing

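The 9 mouse members had a positive log2 IP/Input under each scaling, with DESeq2, without a filter, with the GC correction and with each m5C-IP library left out. With Input thinned to the depth of m5C-IP, 4 of them (Tbx1, Tbx4, Tbx5 and Tbx15) still met the filter, and 6 did when an Input library was left out, because fewer genes were then tested. Genes called in mESC numbered 16590, and 6149 with Input thinned and 9236 to 16165 with a library left out. In K562 4576 genes were called, 8237 without a filter, 512 with Input thinned and 1090 to 4394 with a library left out (up to 4492 on the genes of the full comparison). The 3 human T-box genes called became 0 with Input thinned and 1 to 4 with a library left out. TBX6 was the fourth, called without m5C-IP replicate 2 (log2 3.42, adjusted p = 0.00817), and also without a filter (2.52, adjusted p = 0.0384). TBX1 and TBX15 did not meet the filter with Input thinned and were then not tested. TBX15 was also not tested without an Input library, save on the genes of the full comparison. Both passed the threshold in every fit that tested them. TBX18 missed the threshold without each K562 Input library (-0.547 to -0.561, adjusted p = 0.0784 to 0.0971, 3721 to 3726 genes tested), but held on the genes of the full comparison, an alternative chosen after seeing the data (-0.996 to -0.998). Scaling by library size, with no further factor, moved the median of log2 IP/Input from -0.17 to 0.83 in mESC and from -0.16 to 0.11 in K562, and calls in the higher direction from 48.7% to 67.9% and from 47.9% to 70.2%. DESeq2 gave 64.8% in K562. Members with a peak were 5, of which 1 had peaks in at least 2 libraries, 2 to 5 held one with a peak list left out (2 without replicate 3), and 6 with the 2000 bases before the start, chosen after seeing the data. Whether replicate numbers pair the libraries could not be settled. Deviations of m5C-IP and Input libraries of the same number correlated at only 0.0045 to 0.0296, but each m5C-IP library correlated best with the Input library of its number. Counting error in the shallow m5C-IP libraries keeps such correlations small. The fit with a replicate block called 15434 genes in mESC, 3940 in K562 and 3 human T-box genes.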
